A study of Mus musculus with 2 samples.

Results

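GABPα binding was examined at 9 genes that encode citric acid cycle enzymes: Cs, Idh3a, Idh3b, Idh3g, Ogdh, Dlst, Dld, Fh1 and Mdh2. They were listed by name from the 21938 protein-coding genes of the annotation. Earlier results of these data were known when the list was made. The experiment was a ChIP-seq of CD4+ T cells, purified with magnetic beads from wild-type C57BL/6 mice, with an antibody against GABPα. It comprised 1 ChIP library and 1 library of input DNA from the same cell type, and the deposited peak list gives enrichment of the ChIP over this input. No genotype or treatment was compared, there are no replicates, and no test across samples was possible. The list holds 6782 peaks as positions only. Without heights, q values or read counts, the depth is unknown, and peak width is the only size a peak has. A region outside the list is a region that did not pass the authors' cutoff, which is not the same as a region without binding. A list of binding sites measures no expression, so the markers of CD4+ T cells could not be checked in it.

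The citric acid cycle is the set of mitochondrial reactions that oxidizes acetyl-CoA to carbon dioxide and hands electrons to the respiratory chain. Its enzymes are encoded in the nucleus, and several are complexes whose subunits come from separate genes, so a complete enzyme needs more than a single promoter. GABP is an Ets family factor, also known as nuclear respiratory factor 2. Its α subunit binds DNA at sites with a GGAA core, typically within CCGGAAG, and many of its known targets encode mitochondrial proteins. T cells raise their mitochondrial metabolism when they are activated.

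The list holds a peak at most 1000 bp from an annotated transcript start at 3 of the 9 genes: Idh3b, Idh3g and Dlst. The other 6, Cs, Idh3a, Ogdh, Dld, Fh1 and Mdh2, have none. By enzyme, 2 of the 3 subunit genes of NAD-dependent isocitrate dehydrogenase and 1 of the 3 component genes of the 2-oxoglutarate dehydrogenase complex have a peak. The steps of citrate synthase, fumarase and malate dehydrogenase have none. Among all protein-coding genes 17.7% (3880 of 21938, 95% Wilson interval 17.2 to 18.2) have a peak at this distance. That figure includes promoters of every kind, while the 9 genes all have CpG-rich promoters. Of CpG-rich promoters 31.8% (3098 of 9737, 30.9 to 32.7) have a peak, so 3 of 9 (33.3%) is near the background of such promoters.

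The sequences shown here are copies of the motif next to the starts. CCGGAAG lies within 200 bp of the annotated start in 6 of the 9 genes, and only 3 of the 6 have a peak. The copies inside peaks are shown first, with 11 bases to either side and the motif in capitals, each on the strand on which it reads CCGGAAG (build GRCm38).
Idh3b, chr2:130284439-130284467, plus strand: gggaagtgacgCCGGAAGcgagcgcggtc
Idh3g, chrX:73786984-73787012, minus strand: tgctctaggcaCCGGAAGggggcgtaaga
Dlst, chr12:85110823-85110851, minus strand: cccggcagcaaCCGGAAGtgagaccggcc

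The copies within 200 bp of the start of a gene without a peak are set beside them in the same form.
Idh3a, chr9:54586266-54586294, minus strand: ccagctgcgacCCGGAAGcctcctcccct
Ogdh, chr11:6291779-6291807, minus strand: actcaggcactCCGGAAGcaaggacgcat
Mdh2, chr5:135778352-135778380, plus strand: agcgctaggtcCCGGAAGtgggcaaagct

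The other 3 genes have no such copy near the start. In Cs the nearest CCGGAAG is centred 405 bp downstream of the start, in an exon. Fh1 holds the shorter CGGAAG, centred at position -152.5, and Dld holds neither, and its GGAA nearest to the start is centred at -34.5. Each is the copy nearest to the start of the longest of these words that the gene holds within 1000 bp, with that word in capitals. Bases beside the capitals can extend the match. The Dld core is preceded by CC, so it reads CCGGAA. Fh1 also has a GGAA core preceded by CC, centred at 1.5, which is nearer to its start than the copy shown.
Cs, chr10:128338125-128338153, minus strand: gttcaccttagCCGGAAGggcacgcagca
Fh1, chr1:175625774-175625801, plus strand: ggaaactagtgCGGAAGgaatcatggga
Dld, chr12:31351475-31351500, minus strand: acgaagcgaccGGAAagcctctgcct

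**Figure D1:**
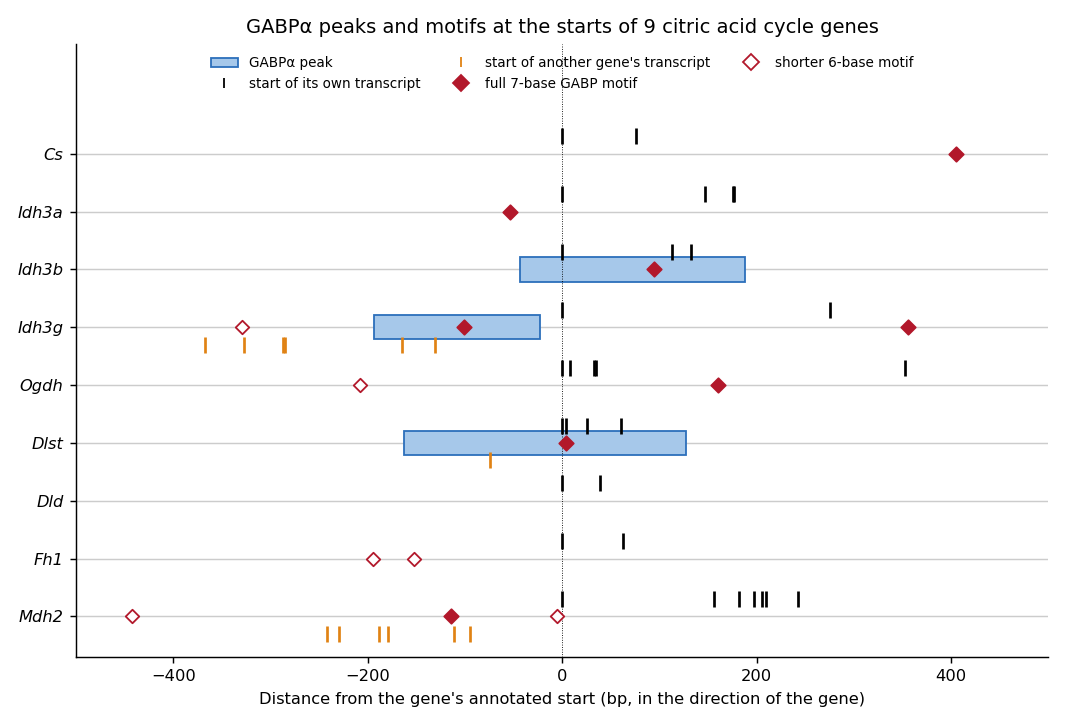
Peaks (blue boxes), the full 7-base motif CCGGAAG (filled diamonds) and the shorter 6-base CGGAAG (open diamonds) within 500 bp of the annotated start of each gene, on an axis in bp that runs in the direction of the gene. Black ticks are starts of the gene's own transcripts and orange ticks those of a neighbour. Idh3b, Idh3g and Dlst have a peak with the motif in it, while Idh3a, Ogdh and Mdh2 have the motif without a peak.

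Isocitrate dehydrogenase (NAD) decarboxylates isocitrate and is a main control point of the cycle. It is built from a catalytic α subunit, encoded by Idh3a, and from the β and γ subunits encoded by Idh3b and Idh3g, which take part in its regulation. Peaks were found at the genes of the latter pair. Idh3b (ENSMUSG00000027406.12, chromosome 2 from 130279309 to 130284547, minus strand) has a peak of 232 bp from 130284360 to 130284591. It covers 3 starts of Idh3b transcripts, and no start of another gene lies within 1000 bp of it. Of its bases 44 lie upstream of the gene, 166 in exons (36 of them coding) and 22 in an intron. The CCGGAAG copy is in the 5′ UTR, centred 94 bp downstream of the annotated start and 22.5 bp from the peak's midpoint.

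Idh3g (ENSMUSG00000002010.17, chromosome X from 73778963 to 73786897, minus strand) has a narrower peak, of 171 bp, from 73786921 to 73787091. It stops 24 bp short of the Idh3g start and lies wholly outside Idh3g, reaching into its divergent neighbour Ssr4, a subunit of the translocon-associated protein complex. The peak covers 2 transcript starts of Ssr4, at positions -131 and -165 from the Idh3g start. By position the peak therefore belongs at least as much to Ssr4 as to Idh3g. Its CCGGAAG is centred at -101 and 8.0 bp from the midpoint of the peak. A second copy, centred 356 bp downstream in an Idh3g exon, is outside the peak. The promoter of Idh3g, from 250 bases before to 50 bases after the start, is also the only one of the 9 with AAGATGGCG, a word of the YY1 motif that 1.70% of all coding promoters hold.

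Idh3a (ENSMUSG00000032279.11, chromosome 9 from 54586334 to 54604661, plus strand), the gene of the catalytic subunit, has no peak over its body. The nearest peak is 96548 bp from a transcript start of Idh3a, is 119 bp wide and holds no CGGAAG. Its closest annotated start is that of the processed pseudogene Gm7368, at 140 bp. Idh3a has CCGGAAG centred at -54, closer to its start than the copies in the Idh3b and Idh3g peaks are to theirs. Of the 36-base sequences within 1000 bp of its start, 99.9% occur only 1 time in the genome.

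The 2-oxoglutarate dehydrogenase complex makes succinyl-CoA from 2-oxoglutarate. It consists of the E1 decarboxylase (Ogdh), the E2 succinyltransferase that carries the lipoyl arm (Dlst) and the E3 dihydrolipoamide dehydrogenase (Dld), which also serves the pyruvate dehydrogenase complex. Only the E2 gene has a peak. Dlst (ENSMUSG00000004789.10, chromosome 12 from 85110833 to 85134845, plus strand) has the widest peak of the 9 genes, 290 bp from 85110670 to 85110959. This width is at the 83.0th percentile of the 3459 peaks within 1000 bp of a coding start, against the 60.5th for Idh3b and the 30.1st for Idh3g. The Dlst peak covers the starts of 6 Dlst transcripts, at 4 positions, and 1 start of a transcript of Prox2, a homeobox gene on the other strand, at position -74. Of its bases 163 are upstream of the gene and 127 exonic, of which 63 are coding. Its motif lies almost on the annotated start, centred at position 4 in the 5′ UTR and 22.5 bp from the midpoint of the peak.

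Ogdh (ENSMUSG00000020456.17, chromosome 11 from 6291633 to 6356642, plus strand) is the nearest to a peak of the 6 genes that have none. That peak, 277 bp wide, ends 23671 bp from the Ogdh start and covers the start of Ddx56, an RNA helicase gene. The CCGGAAG of Ogdh is downstream of its start, centred at 160 bp in an intron. Dld (ENSMUSG00000020664.10, chromosome 12 from 31331277 to 31351453, minus strand) is 148031 bp from the nearest peak, which covers a start of Cbll1. Within 1000 bp of its annotated start Dld has no CGGAAG on either strand, the only one of the 9 genes of which this is true.

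Each of the remaining 3 steps is carried by a single gene of the list. Cs encodes citrate synthase, which joins acetyl-CoA to oxaloacetate (ENSMUSG00000005683.8, chromosome 10 from 128337734 to 128362479, plus strand). Its nearest peak is 71939 bp from a start and covers a start of Nabp2. Fh1 encodes fumarase, which hydrates fumarate to malate (ENSMUSG00000026526.14, chromosome 1 from 175600374 to 175625635, minus strand). It is the farthest of the 9 from a peak, at 254781 bp, and the peak there covers a start of Exo1, an exonuclease gene. Mdh2 encodes the mitochondrial malate dehydrogenase, which regenerates oxaloacetate (ENSMUSG00000019179.10, chromosome 5 from 135778480 to 135790398, plus strand). Its nearest peak, 145709 bp away, covers a start of Rhbdd2. Like Idh3g, Mdh2 shares its promoter with a divergent gene, Styxl1, whose starts lie at positions from -242 to -95, and the CCGGAAG of Mdh2 at -114 lies among them. Mdh2 also has the shorter CGGAAG, centred at -5.5, next to its own start. At Idh3g, by contrast, the motif at -101 lies between the start of the gene and the nearest start of Ssr4.

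None of the 6 genes without a peak is close to the 1000 bp limit. Their gaps lay between 23671 and 254781 bp (median 121 kb), and 17.0% (Fh1) to 67.7% (Ogdh) of all protein-coding genes are farther from a peak. Over all protein-coding genes without a peak at their start the median gap was 91.7 kb. None of the 6 has a peak over its gene body, and in 5 of the 6 the nearest peak covers the start of another protein-coding gene. Read placement was measured too: within 1000 bp to either side of the start, 97.4% (Dld) to 100% (Cs and Mdh2) of the 36-base sequences occur only 1 time in the genome. In the 3 genes with a peak this share was 98.3% to 99.5%, and inside the 3 peaks it was 100%.

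**Figure D2:**
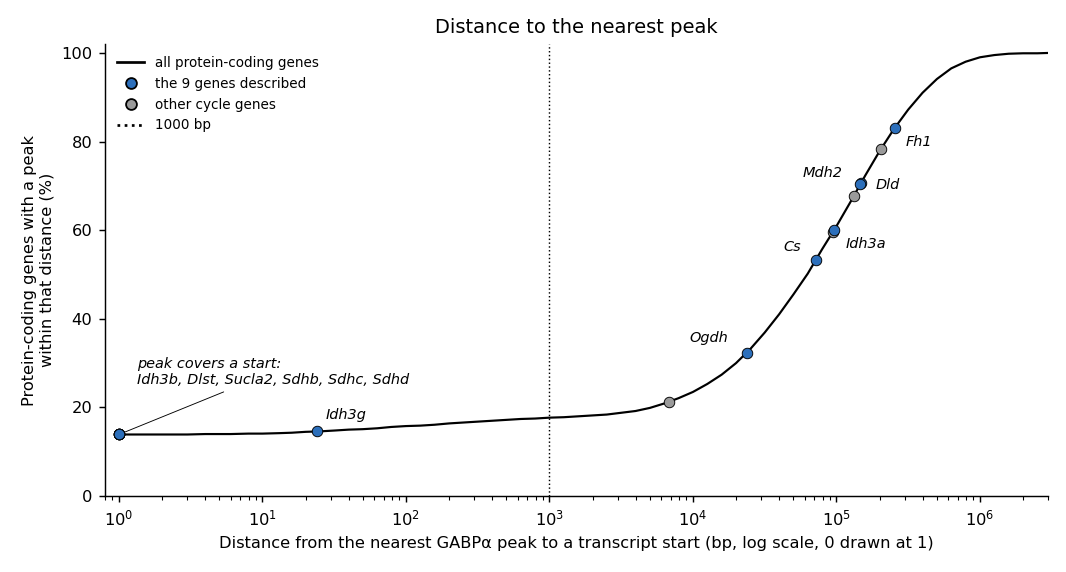
Share of all protein-coding genes whose nearest peak lies within a given distance of a transcript start (black line, distance in bp on a log axis with 0 drawn at 1), with the 9 genes in blue and 8 further genes of the cycle in grey. None of these 17 genes lies between 24 bp (Idh3g) and 6832 bp (Sdha), so the 1000 bp limit (dotted) falls in a gap, and the 6 blue points without a peak run from Ogdh at 23671 bp to Fh1 at 254781 bp.

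All 3 peaks hold CCGGAAG, as do 57.2% (1979 of 3459, 55.6 to 58.9) of the peaks within 1000 bp of a coding start. With 3 peaks this is a description and no more. The GGAA core occurs 4 times in the Idh3b peak, 5 times in the Idh3g peak and 2 times in the Dlst peak, against a median of 4 in peaks at coding starts. Each has 1 copy of CCGGAAG and no further CGGAAG. Peaks of both dehydrogenases put the motif near their middle, within 22.5 bp of the midpoint, where the median over peaks at coding starts with the motif is 17.5 bp. In 2 of the 3 peaks (Idh3b and Dlst) the copy reads CCGGAAG on the strand opposite to the gene. GC content was 61.6% in the Idh3b peak, 60.8% in the Idh3g peak and 67.6% in the Dlst peak.

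Promoters with the motif have a peak within 1000 bp of a start more often than promoters without it. Among coding promoters with CCGGAAG between 250 bases before and 50 bases after the start, 68.5% (1619 of 2364, 66.6 to 70.3) have a peak, against 11.6% (2261 of 19574, 11.1 to 12.0) of those without it. In this window 4 of the 9 genes hold it, and 2 of the 4 have a peak (Idh3g and Dlst), while Idh3a and Mdh2 do not. Idh3b and Ogdh have their copies beyond the window, downstream of the start. Over single copies of CCGGAAG within 200 bp of any coding start, 46.5% (2381 of 5117, 45.2 to 47.9) lie in a peak. This is a different measure: the copy itself had to lie inside a peak, while a promoter needed only a peak within 1000 bp of a start.

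The bases next to the motif differ between the 6 copies, and across the genome these bases go with how often a copy lies in a peak. A copy preceded by A or G lies in a peak in 56.0% of 2507 cases (54.0 to 57.9), and a copy preceded by C or T in 37.5% of 2610 (35.6 to 39.3). For each base before the copy, the share is 56.6% for A, 55.5% for G, 40.2% for C and 32.7% for T. This grouping was made after the 6 copies had been seen, so their division by it is no test. The copies of Idh3b, Idh3g and Dlst are preceded by G, A and A. Those of Idh3a, Ogdh and Mdh2 are preceded by C, T and C. By the base that follows, the share is 66.3% for T, 45.7% for C, 32.6% for A and 26.8% for G. This base does not divide the 6 copies by their peaks: the Idh3g copy, in a peak, is followed by G, the Mdh2 copy, in none, by T like that of Dlst, and those of Idh3b, Idh3a and Ogdh all by C.

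For each of the 6 copies, the other copies in the genome with the same base before and the same 2 bases after were counted. Flanked like the Dlst copy, 72.1% of 190 others lie in a peak (65.3 to 78.0), and flanked like the Idh3b copy 67.8% of 143 (59.8 to 74.9). Flanked like the Idh3g copy, 42.9% of 56 do (30.8 to 55.9), an interval that includes the 46.5% of all copies. The share was 25.8% of 159 for Idh3a (19.6 to 33.1) and 23.4% of 64 for Ogdh (14.7 to 35.1), which have no peak. Mdh2 goes the other way. Its copy is followed by TG, like that of Dlst, and 71.0% of 238 copies flanked like it lie in a peak (64.9 to 76.4), yet it does not. With the same base before and only the first base after, more copies enter and the order changes. The shares were then 72.0% of 403 for Dlst (67.4 to 76.1), 59.9% of 516 for Mdh2 (55.6 to 64.0) and 53.6% of 431 for Idh3b (48.9 to 58.3). They were 39.1% of 524 for Idh3a (35.0 to 43.4), 37.6% of 189 for Idh3g (31.0 to 44.7) and 35.2% of 290 for Ogdh (29.9 to 40.8). In this count Idh3g, which has a peak, stood below the 46.5% of all copies together with Idh3a and Ogdh. These intervals cover counting error only, and the flanks were examined after the copies had been seen.

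**Figure D3:**
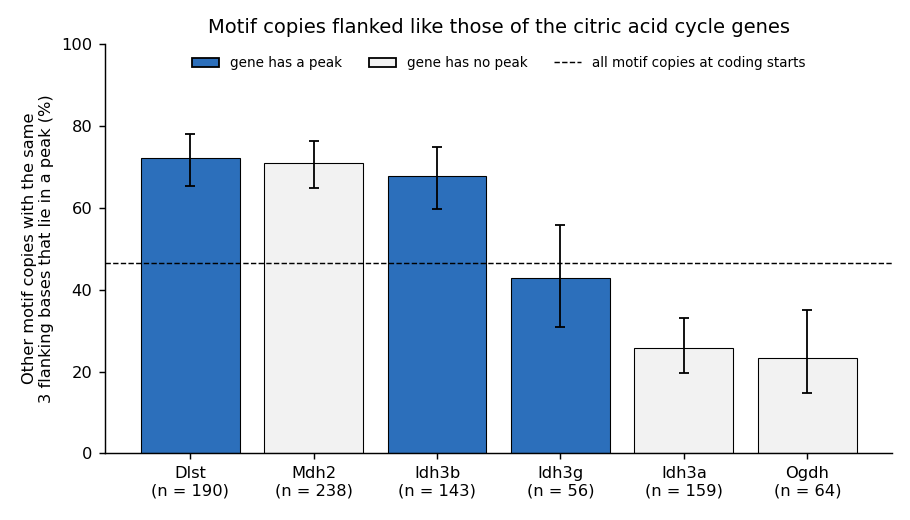
Percentage of other copies of the 7-base motif, within 200 bp of a coding start and with the same base before and 2 bases after, that lie in a peak, for each of the 6 genes with such a copy (bars with 95% Wilson intervals, n copies under each name). Blue bars are genes with a peak and white bars genes without, and the dashed line marks all copies at 46.5%. Dlst, Idh3b and Mdh2 stand above the line at 67.8% to 72.1%, and of these only Mdh2 has no peak, while Idh3a and Ogdh are lowest at 25.8% and 23.4%. With only the first base after the motif, Idh3g (37.6%) falls below Idh3a (39.1%).

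For 7 steps of the cycle 16 genes were counted. Of the 8 further genes counted, the NADP-dependent Idh2 included, 4 have a peak within 1000 bp of a start: Sucla2, Sdhb, Sdhc and Sdhd. Of these 8 genes 7 have a CpG-rich promoter, so that the 4 stand beside the 31.8% of such promoters and the 17.7% of all coding genes. Sucla2, the ADP-specific β subunit of succinyl-CoA synthetase, has peaks of 157 and 170 bp, the latter over its start. In the latter only 65.9% of the 36-base sequences occur 1 time in the genome. Its partners Suclg1 (the shared α subunit) and Suclg2 (the GDP-specific β subunit) have none, and their nearest peaks are 131873 and 204583 bp away. For succinate dehydrogenase, which is also respiratory complex II, the genes of the iron-sulphur subunit Sdhb (276 bp) and the membrane anchors Sdhc (261 bp) and Sdhd (272 bp) have peaks over their starts. The gene of the flavoprotein subunit, Sdha, has none, and its nearest peak lies 6832 bp from a start and covers a start of Pdcd6. Sdhc is the only one of the 4 whose peaks hold neither CCGGAAG nor CGGAAG.

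Set out by step, 4 of the 7 steps have at least 1 gene with a peak and 3 have none. No enzyme made from several genes has a peak at every gene: 2 of 3 genes at isocitrate dehydrogenase, 1 of 3 at 2-oxoglutarate dehydrogenase, 1 of 3 at succinyl-CoA synthetase and 3 of 4 at succinate dehydrogenase. The 3 steps without a peak are those counted with a single gene. A step with more genes has more chances of at least 1 peak and fewer of a peak at every gene. Both counts therefore depend on the number of genes per step, and neither was tested against the 31.8% of CpG-rich promoters with a peak. The NADP enzyme Idh2, counted outside the 7 steps, has none, and its nearest peak is 94461 bp away. A peak that covers a start of the gene itself was found at 2 of the 9 genes (Idh3b and Dlst), against 13.9% (3044 of 21938, 13.4 to 14.3) of protein-coding genes. That share includes promoters of every kind, and no such share is given here for CpG-rich promoters, the kind that all 9 genes have. In 2 of the 3 genes with a peak, Idh3g and Dlst, the peak also covers a start of a neighbouring gene.

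**Figure D4:**
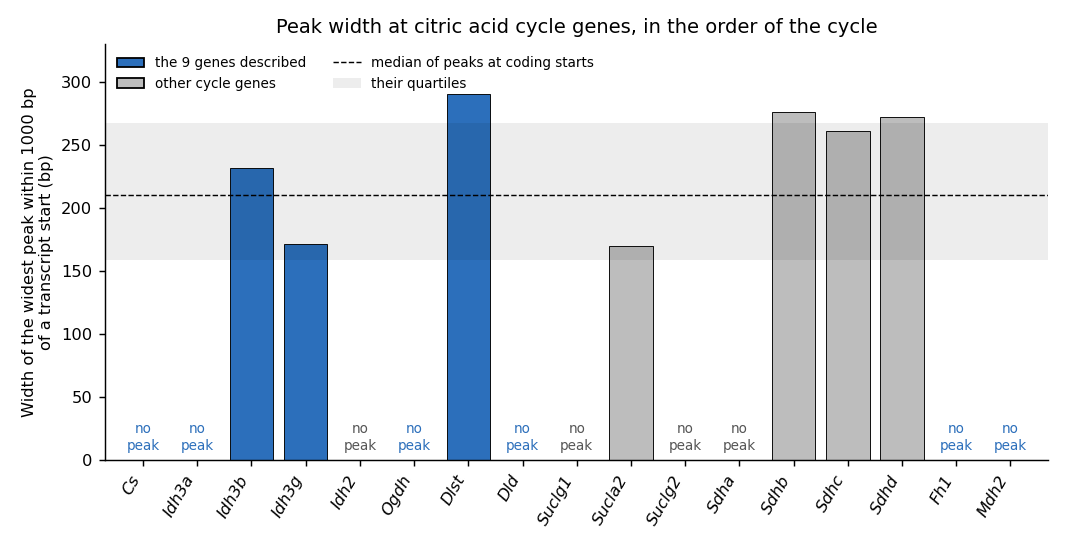
Width in bp of the widest peak at most 1000 bp from a transcript start at 17 genes in the order of the cycle, with the 9 genes in blue and the further ones in grey. The dashed line and band are the median (210 bp) and quartiles (159 to 267 bp) of peaks within 1000 bp of coding starts, and "no peak" marks genes without one. Dlst (290 bp) is the widest and Sucla2 (170 bp) the narrowest of the 7 genes with a peak.

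Around the cycle, 11 of 33 genes (33.3%) have a peak within 1000 bp of a start. Of the 33, 24 have a CpG-rich promoter, so the count stands beside both the 31.8% of such promoters and the 17.7% of all coding genes. Neither is a like background for this mixed list: Mpc1, Lipt1 and Aco1 have a peak and no CpG-rich promoter. For the entry of pyruvate, 5 of 14 genes have a peak. They include both subunits of the mitochondrial pyruvate carrier, Mpc1 (115 bp) and Mpc2 (288 bp), Pdp1 (157 bp) and Pdpr (145 bp), the catalytic and regulatory subunits of pyruvate dehydrogenase phosphatase, and pyruvate carboxylase, Pcx (106 bp). The genes of the pyruvate dehydrogenase complex itself, Pdha1, Pdhb, Dlat and Pdhx, have none, so that with Dld no gene of that complex has a peak. Of the enzymes that make or attach lipoate, the cofactor of Dlst, Lipt1 has a peak of 218 bp with 2 copies of CCGGAAG, and Lias and Lipt2 have none. Of the 4 assembly factors of succinate dehydrogenase, Sdhaf2 (507 bp, shared with Cpsf7) and Sdhaf3 (279 bp) have a peak. Among the cytosolic and side enzymes Aco1 (124 bp), Mdh1 (202 bp, shared with Wdpcp) and Me2 (169 bp) have a peak, 3 of 9. The cytosolic malate dehydrogenase gene Mdh1 thus has a peak, where its mitochondrial counterpart Mdh2 has none. In the Pdpr peak only 14.5% of the 36-base sequences occur 1 time in the genome.

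**Figure D5:**
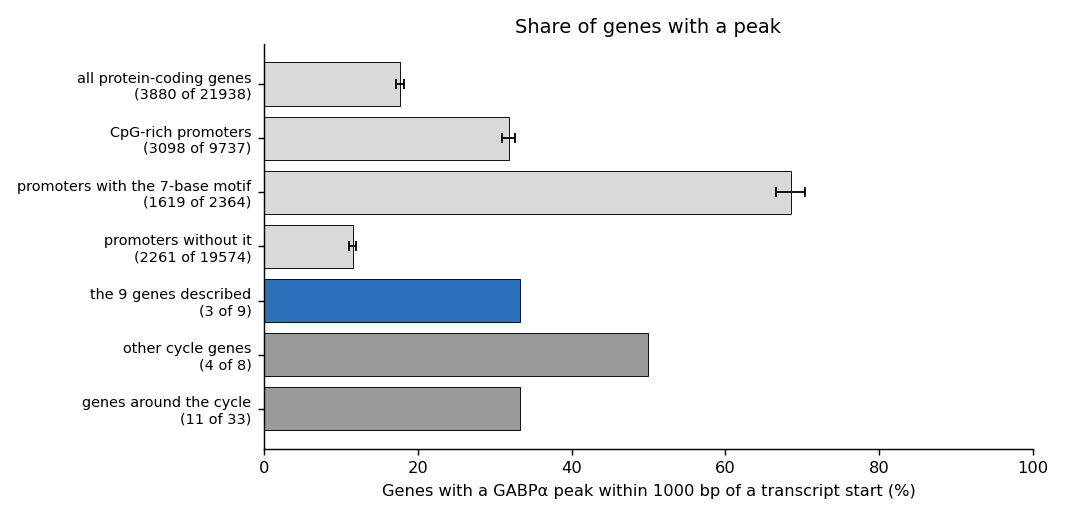
Percentage of genes with a peak at most 1000 bp from a transcript start, for all protein-coding genes and for promoters grouped by sequence (light bars, 95% Wilson intervals) and for the lists of genes (blue and dark bars, which are complete lists and carry no interval). The 9 genes, at 33.3%, stand near CpG-rich promoters at 31.8% and below promoters with the 7-base motif at 68.5%.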

How the data were processed

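GABPα ChIP-seq of mouse CD4+ T cells (1 ChIP and 1 input library) was used. The authors sequenced single ends of 36 bp, removed adapters and low-quality bases (Trimmomatic), mapped the reads to mm10 (Bowtie) and called peaks of the ChIP over the input at a q value cutoff (MACS2). Versions are not given in the sources used here. The deposited list gives positions only (chromosome, first and last base). Its score column is empty, so no count, fold or q value of a peak was used. Starts were taken as 0-based and printed as 1-based positions of mm10 (GRCm38), and all 6782 peaks end inside their chromosome in that assembly. How reads that match several places were treated is not given in the sources used here, and it bears on peaks in repeated sequence.

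Genes, transcripts and exons were from GENCODE M21, and sequence from GRCm38.p6 of RefSeq. A gene had a peak when the gap between a peak and any of its transcript starts was at most 1000 bp. Motifs were searched as exact words on both strands, and CCGGAAG contains CGGAAG and GGAA. A promoter was 250 bases before to 50 bases after the gene's annotated start (300 bases). A promoter was called CpG-rich with a GC content of at least 50% and an observed to expected CpG ratio of at least 0.6 in the 500 bp to either side of the start, a definition chosen after the peaks had been seen. Uniqueness was counted over all 36-base words of the 21 chromosomes. Intervals are Wilson 95% intervals and cover counting error only. No test across samples was run, since there is 1 ChIP library. The genes and lists were chosen with earlier results of these data known. Named by rule were the 9 genes, the further cycle genes, the genes around the cycle with a peak, and genes with a start within 1000 bp of a peak of the 9. Other neighbours, the genes of the pyruvate dehydrogenase complex, Lias and Lipt2 were named after their values were seen, and the flanking bases were likewise compared after the sites were seen. Some further results are not reported here. The scripts were tested on simulated data. The scripts used pysam 0.24.0 and numba 0.67.0 for sequence, pandas 2.3.3 and numpy 2.4.6 for tables, scipy 1.17.1 for intervals and matplotlib 3.10.9 for plots, under Python 3.11.15.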

Additional observations from a re-analysis of the deposited data

How the results depend on the processing

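The counts of 3 of 9 genes with a peak and of 4 of the 8 further cycle genes were the same with windows of 500, 2000 and 5000 bp. They were also the same with the gene's annotated start or coding transcripts only. Nor did they change with peaks of at least median width (157 bp over all 6782 peaks), with peaks under 50% soft-masked or with starts read as 1-based. Counting a peak only where it is at least as near to the gene's own start as to another gene's, an alternative chosen after seeing the data, left 2 (without Idh3g) and 4. All 3 peaks held each shorter form of the motif, and the median width of 232 bp was 261 bp for the 2 peaks that cover a start. The count of 11 among the genes around the cycle was 7 with peaks of at least median width. The background of 17.7% was 17.2% with a window of 500 bp, 19.9% with 5000 bp, 16.4% with the annotated start only, 14.0% with peaks of at least median width, and, for subsets chosen after seeing the data, 31.8% for CpG-rich promoters and 68.5% for promoters with CCGGAAG. Of 48 alternatives 41 stayed within 1.5 times the count or within the interval. No paired analysis was possible because there is 1 ChIP library and no test. The depth is unknown, so binding under the authors' cutoff at the 6 genes without a peak cannot be told from none.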

Other observations

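Motifs of other factors that act on mitochondrial genes were counted in the 300-base promoters, as a description. GCATGCGC, a word of the NRF1 motif, is in none of the 9 promoters and in 3.71% of all coding promoters. AAGGTCA, a word of the motif of estrogen-related receptors, is also in none of the 9, and in 4.16% of all. GGGCGG, bound by Sp factors, is in 6 of the 9 and in 43.0% of all coding promoters. It is in 1 of the 3 promoters with a peak (Dlst) and in 5 of the 6 without (Cs, Idh3a, Ogdh, Fh1 and Mdh2). CCAAT is divided the same way, in 1 of 3 (Idh3b) and in 5 of 6 (Cs, Idh3a, Ogdh, Dld and Fh1), and is in 39.0% of all. Over all coding promoters GGGCGG was more frequent at genes with a peak (60.1%) than without (39.3%), the opposite of its division among the 9, and CCAAT was near equal (39.3% and 38.9%). No match says only that these letters are not in the window.

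Among the copies of CCGGAAG at genes without a peak, that of Mdh2 has the highest share by its flanks in both counts. It has the flanks of copies that lie in a peak in 71.0% of cases (59.9% where only the first base after it is matched), it lies in sequence of which every 36-base word within 1000 bp occurs only 1 time, and the nearest listed peak is 145709 bp away.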
